A study of Mus musculus with 6 samples.

Results

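The signaling lymphocytic activation molecule (SLAM) family receptors were examined in unstimulated bone-marrow-derived macrophages (BMDMs) with and without CITED2. The family was taken as 9 genes by name, *Slamf1*, *Slamf6*, *Slamf7*, *Slamf8*, *Slamf9*, *Cd48*, *Cd84*, *Ly9* and *Cd244*, out of 22248 genes listed. All 9 were found, *Cd244* under its newer symbol *Cd244a*. The genes were chosen by family name, and the family itself was selected on its measured FPKM difference between the genotypes, so the members' differences are a description without a test. The data comprise 6 RNAseq libraries. Control BMDMs (3 libraries) came from *Lyz2cre* mice, and CITED2-deficient BMDMs (3 libraries) from mice that also had floxed *Cited2* alleles (*Cited2 fl/fl*:*Lyz2cre*), all on the C57BL/6 strain and 10 weeks old by the labels. The methods of the paper give a somewhat younger age for the mice from which BMDMs were grown. Every mouse carried Cre recombinase at *Lyz2*, a gene active in monocytes, macrophages and granulocytes, so the control cells also express Cre and deletion follows the activity of that promoter. Bone marrow cells were grown in macrophage colony-stimulating factor, and no library was stimulated. The sources give 3 for each genotype without saying whether each library is 1 mouse, so the errors and p-values measure the spread between these libraries.

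SLAM receptors are immunoglobulin superfamily proteins on hematopoietic cells, and most of them bind another copy of themselves on a neighboring cell. CD48 and CD244 are the exception and bind each other. The cytoplasmic tails of SLAMF1, SLAMF6, SLAMF7, CD84, LY9 and CD244 carry tyrosine-based switch motifs that recruit small SH2-domain adaptors of the SAP and EAT-2 kind, or phosphatases when those adaptors are missing. SLAMF8 and SLAMF9 have short tails without such motifs, and CD48 has no tail and is held by a lipid anchor. In macrophages the family is known for roles in uptake of bacteria and cells, in phagosome maturation and in cytokine production.

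The values are FPKM (fragments per kilobase of transcript and per 1000000 mapped fragments), which allow levels to be compared between genes. Recovered depth was 17289286 to 18952077 fragments in control libraries and 22583995 to 26100410 in CITED2-deficient libraries. *Cited2* itself had an FPKM of 71.7, 79.3 and 75.5 in the control libraries and of 9.27, 7.22 and 7.53 in the CITED2-deficient libraries, so each library fitted its genotype (log2 fold change -3.09, adjusted p = 6.57e-09 in limma). Differences are log2 fold changes of FPKM + 1 (CITED2-deficient over control), which understate the change of low genes, from limma over the 11687 genes whose FPKM averaged 1 or more. The median over all tested genes was -0.10 as deposited and -0.0069 after median-ratio scaling of the libraries. Of the 9 members, 6 entered that fit, and each of these had an FPKM of at least 9.04 in every library. The other 3 (*Slamf1*, *Slamf6* and *Cd244a*) had at most 0.824 in any library.

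The family was dominated by 4 receptors in control BMDMs. The control mean FPKM was 290.9 ± 3.87 for *Cd84*, 194.7 ± 4.55 for *Ly9*, 183.8 ± 2.74 for *Cd48* and 135.9 ± 2.02 for *Slamf7* (SD, n = 3 each). *Cd84* stood above 98.4% of all listed genes in control libraries, and *Slamf7* above 96.4%. The ranges of these 4 genes did not overlap one another in control libraries. *Slamf9* (10.9 ± 0.832) and *Slamf8* (9.76 ± 0.771) followed at a much lower level, and their control ranges overlapped. In CITED2-deficient BMDMs the order differed at 1 place among the 6 expressed genes. *Slamf7* (223.5 ± 11.5) lay above *Cd48* (138.5 ± 0.593), and *Slamf9* (81.5 ± 2.94) and *Slamf8* (21.3 ± 1.86) no longer overlapped. The 9 FPKM values summed to 827.1 ± 9.36 in control and 1077 ± 23.1 in CITED2-deficient BMDMs, a ratio of 1.30.

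**Figure D1:**
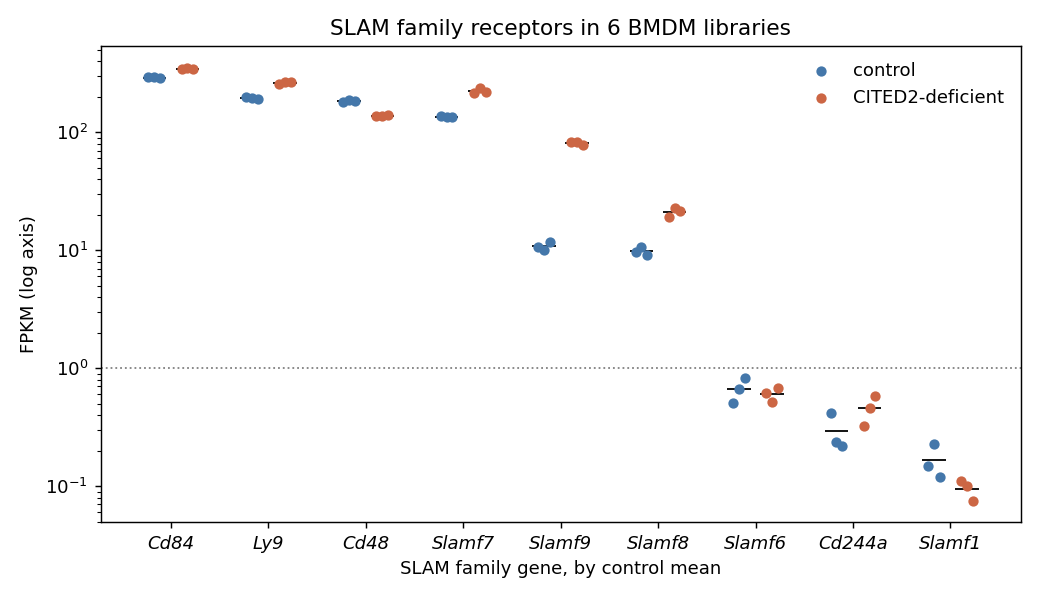
FPKM of each SLAM family gene (log axis) in the 3 control and 3 CITED2-deficient libraries; points are libraries, black lines are group means and the dotted line is the FPKM of 1 used as the filter. The 6 genes on the left lie at or above 9.04 in every library, and the 3 on the right at or below 0.824.

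The short-tailed receptors had the largest differences of the family. *Slamf9* (ENSMUSG00000026548, chromosome 1, 172475358 to 172478575 in mm10, plus strand), a receptor reported on plasmacytoid dendritic cells and macrophages, had an FPKM of 10.7, 10.1 and 11.8 in control replicates 1 to 3 and of 83.3, 83.1 and 78.1 in CITED2-deficient replicates 1 to 3. Every CITED2-deficient library was far above every control library, and the replicates of each genotype lay close together. These values came from 266, 230 and 293 fragments in control and 2780, 2465 and 2678 in CITED2-deficient libraries. The ratio of the means was 7.50, the log2 fold change was 2.80 (standard error 0.06), and it ranked 31 among the tested genes ordered by log2 fold change. *Slamf8* (ENSMUSG00000053318, chromosome 1, 172581758 to 172590568, minus strand), known for restraining NADPH oxidase activity in phagosomes, had 9.67, 10.6 and 9.04 in control and 19.3, 22.9 and 21.7 in CITED2-deficient libraries. Its groups did not overlap, and the ratio of means was 2.18 (log2 fold change 1.05, standard error 0.08). These were the 2 members whose log2 fold change reached 1, a size that 5.33% of all tested genes reached in either direction.

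The promoters of these genes are shown because *Slamf9* and *Slamf8* hold the motif matches found in the family, with *Slamf7* and *Cd48* beside them as members that differed less or in the other direction. Each sequence is the 250 bases before the RefSeq transcription start in GRCm38.p6, 5′ to 3′ on the gene's own strand, with motif matches in capitals. The windows are chr1:172475110-172475359 (plus strand) for *Slamf9*, chr1:172590569-172590818 (minus strand) for *Slamf8*, chr1:171649000-171649249 (minus strand) for *Slamf7* and chr1:171681742-171681991 (plus strand) for *Cd48*.
Slamf9: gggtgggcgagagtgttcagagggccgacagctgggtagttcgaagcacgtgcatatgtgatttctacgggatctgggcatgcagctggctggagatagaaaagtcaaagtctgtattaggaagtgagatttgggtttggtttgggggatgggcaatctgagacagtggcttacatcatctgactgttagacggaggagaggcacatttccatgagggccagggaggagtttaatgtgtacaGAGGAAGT
Slamf8: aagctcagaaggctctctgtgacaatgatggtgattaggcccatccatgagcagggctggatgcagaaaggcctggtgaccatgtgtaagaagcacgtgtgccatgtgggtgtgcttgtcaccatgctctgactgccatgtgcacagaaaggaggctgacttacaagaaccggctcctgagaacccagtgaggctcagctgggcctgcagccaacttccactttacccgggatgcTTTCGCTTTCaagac
Slamf7: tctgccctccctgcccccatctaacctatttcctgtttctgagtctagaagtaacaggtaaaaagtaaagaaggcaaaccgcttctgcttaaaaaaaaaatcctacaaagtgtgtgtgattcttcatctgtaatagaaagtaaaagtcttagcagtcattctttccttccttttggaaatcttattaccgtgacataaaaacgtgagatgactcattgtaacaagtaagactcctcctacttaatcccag
Cd48: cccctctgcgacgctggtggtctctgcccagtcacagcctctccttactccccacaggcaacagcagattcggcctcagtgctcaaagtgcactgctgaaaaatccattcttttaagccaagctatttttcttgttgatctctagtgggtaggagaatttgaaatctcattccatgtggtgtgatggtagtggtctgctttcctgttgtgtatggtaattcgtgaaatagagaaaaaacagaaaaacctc
A RefSeq promoter was matched for 8 of the 9 members, *Ly9* being the exception. Searched on both strands were the interferon-stimulated response element core (GAAA, any pair of bases, GAAA), the STAT site TTCNNNGAA, which BCL6 sites resemble, the PU.1 core GAGGAAGT and 1 consensus site of NF-kB. The matches found did not overlap one another. *Slamf8* held 1 response element core starting 15 bases before its start site, read on the opposite strand. That motif was present in 2.98% of 32851 RefSeq promoter windows of the same length. *Slamf9* held the PU.1 core in its last 8 bases, a sequence found in 2.44% of those windows. None of these letters occurred in the windows of the other 6 matched members. Each matched member had 1 window. That of *Slamf7* lies within the span of the gene given below, so bases before the outer end of that span were not searched. The STAT site was present in 7.02% of all windows and the NF-kB site in 0.140%.

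Among the receptors with tyrosine switch motifs, those that were expressed all had higher means in CITED2-deficient BMDMs. *Slamf7* (ENSMUSG00000038179, chromosome 1, 171632403 to 171653035, minus strand), which promotes phagocytosis in macrophages, had 137.9, 136.0 and 133.8 FPKM in control and 214.7, 236.5 and 219.2 in CITED2-deficient libraries. The groups were well apart, with a ratio of means of 1.64 and a log2 fold change of 0.71 (standard error 0.04). *Ly9* (ENSMUSG00000004707, chromosome 1, 171588624 to 171607410, minus strand) had 199.3, 194.7 and 190.2 in control and 258.8, 268.1 and 265.5 in CITED2-deficient libraries. Again no value of one genotype fell within the other, with a log2 fold change of 0.44 (standard error 0.03). *Cd84* (ENSMUSG00000038147, chromosome 1, 171839697 to 171890718, plus strand), the most abundant member in each genotype, had 291.8, 294.3 and 286.7 against 343.8, 353.7 and 343.1. The gap between its groups was wide compared with the spread within them, although the ratio of means was only 1.19 (log2 fold change 0.25, standard error 0.03). *Ly9* lies wholly within the span of *Cd244a* on the opposite strand, over 18787 bases. The libraries were stranded, but whether strand was used in counting is not stated.

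*Cd48*, which encodes the lipid-anchored ligand of CD244 and CD2, was the expressed member with a lower level. *Cd48* (ENSMUSG00000015355, chromosome 1, 171682009 to 171705258, plus strand) had 181.2, 186.6 and 183.7 FPKM in control and 138.7, 137.8 and 139.0 in CITED2-deficient libraries. All CITED2-deficient values lay below all control values, and the CITED2-deficient libraries differed from one another by a coefficient of variation of 0.428%. The ratio of means was 0.753 and the log2 fold change -0.41 (standard error 0.03). After median-ratio scaling the log2 fold change was -0.30, the value nearest to 0 among the alternatives tried.

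The tested members past an adjusted p of 0.05 in limma were 5 higher and 1 lower, while 16.7% of all tested genes were higher and 34.6% lower (51.3% in either direction). That background depends on scaling, since after median-ratio scaling 23.1% of tested genes were higher and 21.3% lower, with the members still 5 higher and 1 lower. The groups did not overlap for 7 of the 9 members, against 40.0% of all listed genes. Among tested genes the groups did not overlap for 59.9%, of which 19.0% were higher and 40.9% lower in percent of all tested genes. The median log2 fold change of the 6 tested members was 0.58. These shares are given for the background only, since the family was picked with this contrast in view. Over 15 alternatives the log2 fold change ranged from 2.75 to 2.90 for *Slamf9*, from 1.00 to 1.15 for *Slamf8*, from 0.67 to 0.82 for *Slamf7*, from 0.42 to 0.54 for *Ly9*, from 0.24 to 0.36 for *Cd84* and from -0.42 to -0.30 for *Cd48*.

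The make-up of the family differed mainly at *Cd48* and *Slamf9*. *Cd48* accounted for 22.2 ± 0.385% of the summed family FPKM in control and 12.9 ± 0.324% without CITED2 (SD, n = 3 each). *Slamf9* went from 1.32 ± 0.116% to 7.57 ± 0.275%, and *Slamf7* from 16.4 ± 0.137% to 20.7 ± 0.616%. *Ly9* held 23.5 ± 0.368% and 24.5 ± 0.296%, while *Cd84* went from 35.2 ± 0.120% to 32.2 ± 0.206% although its own FPKM was higher. A share depends on all the other members as well as on the gene itself.

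**Figure D2:**
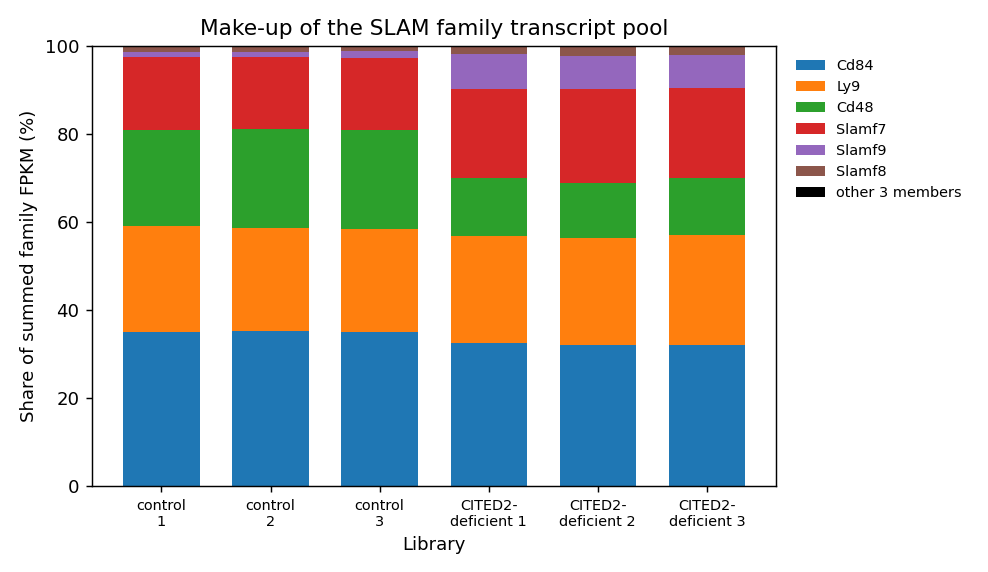
Share of each SLAM family gene in the summed FPKM of the 9 genes (%, vertical axis) in each of the 6 libraries (horizontal axis). *Cd48* narrows from 22.2% to 12.9% and *Slamf9* widens from 1.32% to 7.57% on average, while the 3 lowest members are too small to see.

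The remaining 3 members were close to the limit of detection. *Slamf1*, a receptor for bacterial outer membrane proteins, gave 10, 14 and 8 fragments in control and 10, 8 and 7 in CITED2-deficient libraries. Its FPKM (0.149, 0.228 and 0.119 against 0.111, 0.0996 and 0.0754) did not overlap between the groups. Summed over libraries this was 0.580 per 1000000 fragments (95% exact Poisson interval 0.397 to 0.819) in control and 0.337 (0.218 to 0.498) in CITED2-deficient BMDMs. The intervals cover counting error only, and their overlap is not a test of a difference. *Slamf6*, which is best known on T and NK cells, gave 19, 23 and 31 against 31, 23 and 35 fragments, or 1.32 (1.04 to 1.66) and 1.201 (0.965 to 1.48) per 1000000. A difference in *Slamf6* was not detectable at this depth. *Cd244a*, the CD48 receptor of NK cells, gave 19, 10 and 10 against 20, 25 and 37 fragments. Its rate was 0.707 per 1000000 (0.503 to 0.967) in control and 1.11 (0.880 to 1.37) in CITED2-deficient BMDMs, the FPKM ranges of the groups overlapped, and it overlaps the far more abundant *Ly9*. The ranges of *Cd244a* and *Slamf1* overlapped in control libraries, and those of *Slamf6* and *Cd244a* in CITED2-deficient libraries.

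The tested genes whose libraries followed *Slamf9* most closely, by Pearson's r of log2(FPKM + 1) over the 6 libraries, were *Xylt1* (r = 0.9999), *Cxcl16* (r = 0.9998) and *H2-T24* (r = 0.9997). *Xylt1*, a xylosyltransferase that starts proteoglycan chains, had a mean FPKM of 15.4 in control and 39.2 in CITED2-deficient BMDMs. *Cxcl16*, a membrane-bound chemokine, had 84.0 and 131.9, and *H2-T24*, a nonclassical MHC class I gene, had 19.7 and 124.9. Those closest to *Cd48* were *Gmfb* (r = 0.9997, 99.5 and 81.3), *C1qa* (r = 0.9993, 1878 and 1275), a chain of complement C1q, and *Prkar2a* (r = 0.9993, 54.2 and 37.7), a regulatory subunit of protein kinase A. The 6 points share 2 genotypes, and an r over 0.99 was reached by 388 genes for *Slamf9* and 360 for *Cd48*.

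All 9 members lie on chromosome 1 within 1031 kb. A dense stretch of 394 kb runs from *Cd244a* to *Slamf6* and holds 7 of them, in the order *Cd244a*, *Ly9*, *Slamf7*, *Cd48*, *Slamf1*, *Cd84*, *Slamf6*. *Slamf9* and *Slamf8* stand 522 kb further on, 103 kb apart. Members with higher, lower and barely detected RNA alternate along the dense stretch, so *Cd48* lies between *Slamf7* and *Slamf1*.

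Neighboring genes at the locus did not share 1 direction. Of 63 other listed genes between the members or within 500 kb outside them, 35 were tested, of which 5 were higher, 14 were lower and 16 did not pass (limma, adjusted p over all genes), against 16.7% and 34.6% of all tested genes. After median-ratio scaling 9 neighbors were higher and 10 lower, against 23.1% and 21.3% of all tested genes. The median log2 fold change of the neighbors was -0.13. Within the dense stretch 4 neighbors were tested, and the pseudogene *Tma7-ps*, next to *Cd48*, fell (-0.89, adjusted p = 4.92e-06 in limma). *Tma7-ps* is a processed pseudogene, and whether its fragments come from a parent gene elsewhere was not tested. *Gm37787*, an antisense RNA inside *Slamf7*, rose by 0.62 (adjusted p = 0.0345 in limma). It no longer passed when control replicate 2 or any 1 of the CITED2-deficient libraries was left out, with 0.36 to 0.69 in those fits, and its fragments cannot be told from those of *Slamf7* if strand was not used. The 8 tested genes between *Slamf6* and *Slamf9* comprised 1 higher (*Pea15a*, 0.18), 4 lower (*Kcnj10*, -1.39, *Igsf8*, -0.40, *Dcaf8*, -0.24, and *Copa*, -0.18) and 3 that did not pass. *Copa* no longer passed after median-ratio scaling (-0.073).

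*Igsf9*, an immunoglobulin superfamily adhesion gene outside the SLAM family, starts 3.21 kb beyond the end of *Slamf9* on the same strand (chromosome 1, 172481788 to 172498878). Its FPKM was 1.30, 0.861 and 1.06 in control and 8.28, 8.48 and 7.86 in CITED2-deficient libraries, from 38, 23 and 31 and then 325, 296 and 317 fragments. The groups were far apart (log2 fold change 2.16, standard error 0.11, adjusted p = 3.71e-07 in limma), the largest change among the tested neighbors. *Tagln2*, the tested gene after *Igsf9*, rose by only 0.15 (adjusted p = 0.00158 in limma). Whether fragments of *Igsf9* arise from transcription through *Slamf9* was not tested. Also higher was *Nectin4* (0.67) outside the members. Other neighbors that fell included *Fcgr3*, *Pcp4l1*, *Ppox*, *Usp21*, *Ufc1*, *Usf1*, *Tstd1* and *Dusp23*, of which *Usf1* (-0.14) no longer passed after median-ratio scaling (-0.040). *Tstd1* (-0.42) passed narrowly and was lost without any 1 library except CITED2-deficient replicate 1, with values from -0.44 to -0.25 in those fits.

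**Figure D3:**
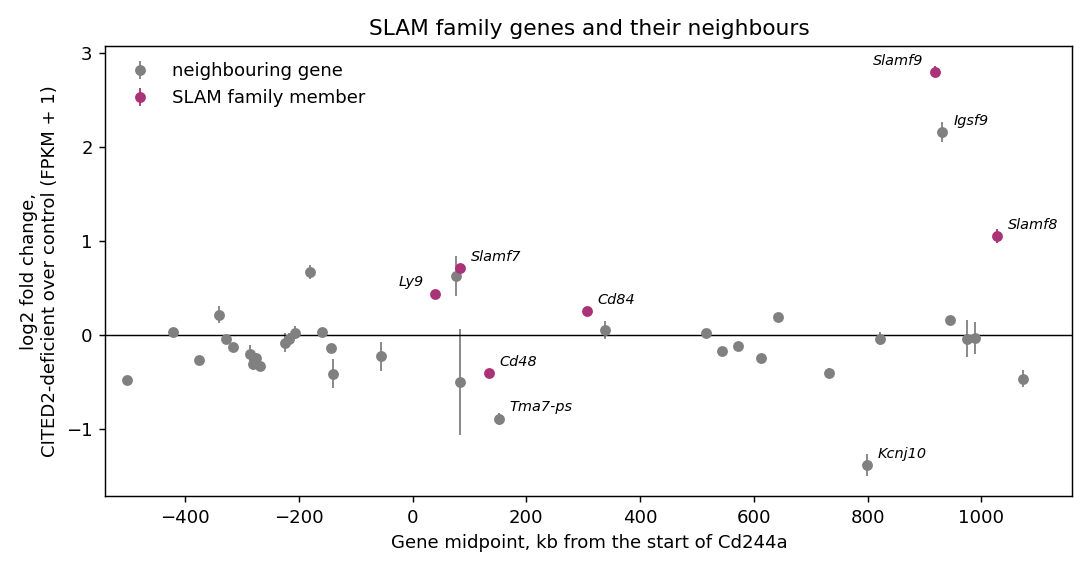
Log2 fold change of FPKM + 1 (vertical axis, CITED2-deficient over control, bars are standard errors) of the tested genes along the SLAM locus, by the distance of the gene's midpoint from the start of *Cd244a* in kb (horizontal axis). *Slamf9* (2.80) and its neighbor *Igsf9* (2.16) lie highest, and the grey neighbors in between stay mostly within 0.5 of 0.

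The proteins that act with SLAM receptors were read from lists of 32 genes, of which 28 were tested. In limma 12 were higher, 8 lower and 8 not past the threshold, against 16.7% higher and 34.6% lower of all tested genes. After median-ratio scaling 15 were higher and 5 lower, against 23.1% and 21.3% of all tested genes. The median log2 fold change of the 28 as deposited was 0.016, against -0.10 over all tested genes. The 1 tested adaptor gene and 1 of the 2 tested genes of the CD47 list were higher and none in these lists was lower, while each other list held genes of either direction. *Sh2d1b1* (chromosome 1, 170277320 to 170286769), which encodes the adaptor EAT-2 that couples SLAMF7 to activation, had an FPKM of 1.25, 1.30 and 1.29 in control and 4.66, 4.87 and 4.20 in CITED2-deficient libraries. It rose with groups far apart, from 1.28 ± 0.0254 to 4.58 ± 0.343 (SD, n = 3; log2 fold change 1.29, standard error 0.10, adjusted p = 8.15e-06 in limma). It has a near-identical relative, *Sh2d1b2*, not found under that name among the listed genes, with which fragments could have been divided. *Sh2d1a*, which encodes SAP, the adaptor of T and NK cells, was listed at 0 in 5 of 6 libraries and at 0.0901 in CITED2-deficient replicate 3.

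Of the tyrosine kinases, the Src family genes *Lyn* (0.23, adjusted p = 0.000655) and *Fyn* (0.15, adjusted p = 0.0165) rose in limma, while *Btk* (-0.16, adjusted p = 0.00404, but not past the threshold after median-ratio scaling, -0.061) and *Syk* (-0.083, adjusted p = 0.0337) fell and *Fgr* did not pass (-0.19). *Fyn* was lost without CITED2-deficient replicate 2 (0.13), and *Syk* without any 1 library other than that one (-0.093 to -0.076 in those fits) or with median-ratio scaling (0.020). All 6 phosphatases and brakes passed in limma, where 51.3% of all tested genes passed in either direction. *Csk*, which silences Src kinases, rose from 185.0 ± 4.56 to 246.9 ± 6.23 FPKM (0.41, adjusted p = 6.69e-06). *Dok2*, an adaptor that dampens Ras signaling, fell from 121.2 ± 1.84 to 58.0 ± 2.53 (-1.05, adjusted p = 5.19e-08). *Inpp5d*, which encodes SHIP, fell (-0.18, adjusted p = 0.00243), although not past the threshold after median-ratio scaling (-0.075). *Dok1* (0.12), *Ptpn11* (0.12) and *Ptpn6* (0.092) passed narrowly. *Ptpn11* was lost whichever library was left out (0.0997 to 0.14). *Ptpn6* was lost whichever was left out except CITED2-deficient replicate 1 (0.066 to 0.094), and *Dok1* for any library except replicate 2 of either genotype (0.092 to 0.12).

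SLAMF7 promotes uptake together with the integrin Mac-1 and receptors with activating motifs. *Itgam*, the alpha chain of Mac-1, fell from 89.7 ± 0.865 to 50.9 ± 1.69 FPKM (-0.81, adjusted p = 1.77e-07 in limma), whereas its beta chain *Itgb2* rose slightly (0.14, adjusted p = 0.00232). *Tyrobp*, which encodes the adaptor DAP12, fell (-0.23, adjusted p = 0.000473 in limma), and *Fcer1g*, the Fc receptor gamma chain, did not pass (-0.047). Under 1 of the alternatives *Fcer1g* did pass, with a negative value. *Itgam* and *Slamf7* thus differed in opposite directions between the same libraries.

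SLAMF1 and SLAMF8 are known for their effect on the phagosomal oxidase. *Cybb*, the catalytic oxidase subunit, had 731.2, 713.2 and 730.1 FPKM in control and 1384, 1432 and 1366 in CITED2-deficient libraries, and rose by 0.94 (adjusted p = 1.11e-08 in limma). *Uvrag* fell (-0.28, adjusted p = 0.00034 in limma), and the other members of the class III kinase complex with which SLAMF1 associates did not pass (*Becn1*, -0.052, *Pik3c3*, -0.16, and *Pik3r4*, -0.14). *Pik3r4* passed without control replicate 2 (-0.19). Of the phospholipase and calcium genes *Vav1* rose (0.16, adjusted p = 0.00194 in limma), *Plcg1* fell (-0.56, adjusted p = 0.000123), and *Plcg2* (0.12) and *Prkcd* (0.0082) did not pass as deposited but did after median-ratio scaling (0.22 and 0.11), with *Prkcq* below the filter. *Cd47*, the ligand through which target cells restrain uptake, rose from 186.1 ± 2.63 to 258.5 ± 6.03 (0.47, adjusted p = 1.62e-06 in limma), its receptor *Sirpa* did not pass (0.024) except after median-ratio scaling (0.13), and *Cd2* was below the filter.

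**Figure D4:**
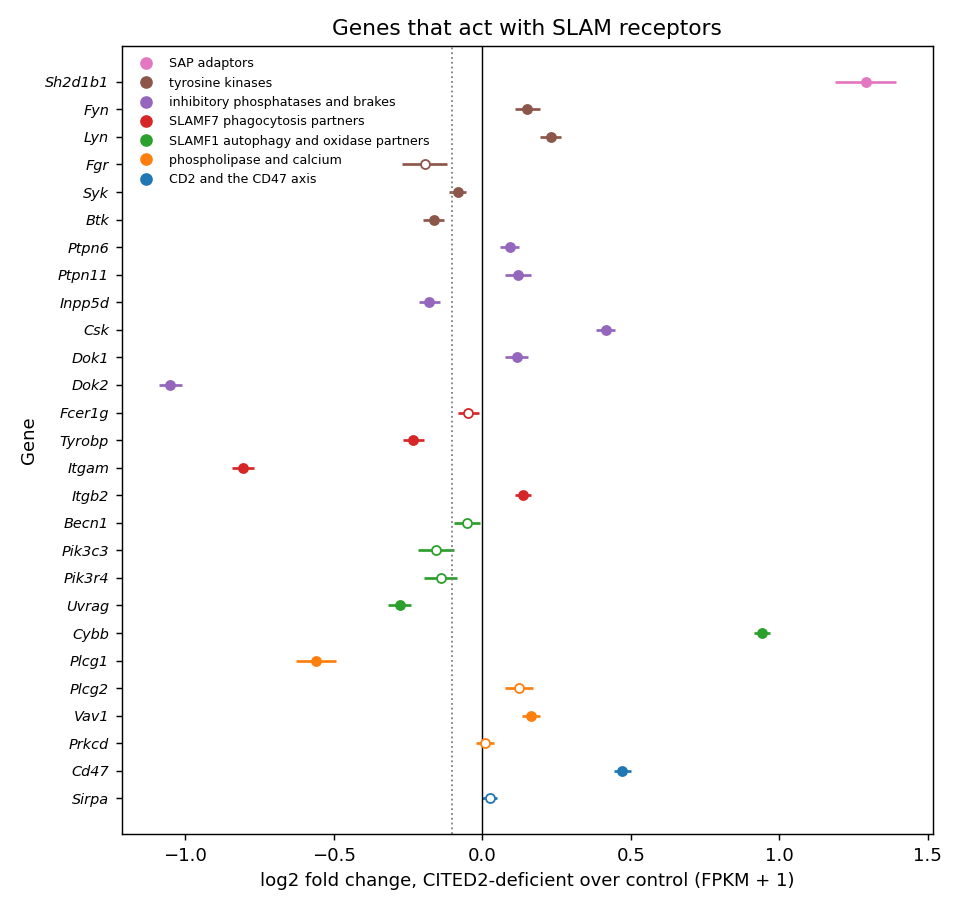
Log2 fold change of FPKM + 1 (horizontal axis, CITED2-deficient over control, bars are standard errors) of the tested genes named here that act with SLAM receptors (vertical axis), colored by list. Filled points pass an adjusted p of 0.05 in limma, open points do not, and the dotted line is the median of all tested genes (-0.10). *Sh2d1b1* (1.29) and *Cybb* (0.94) are highest and *Dok2* (-1.05) and *Itgam* (-0.81) lowest.

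Several SLAM receptors are best known on lymphocytes and dendritic cells, so markers of those cells are given beside the values above. The summed FPKM of 6 T cell markers was 0.349 to 1.07 in control and 0.877 to 1.63 in CITED2-deficient libraries, and no gene of that list reached the filter. The 4 listed NK cell markers summed to 0.558 to 0.786 and 0.457 to 0.578. The 6 B cell markers summed to 8.37 to 11.2 and 9.90 to 10.8, most of it *Cd22*, with *Ms4a1* at a mean of 0.192 and 0.194. Of the plasmacytoid dendritic cell list *Siglech* was at a mean of 0.180 and 0.192, and *Tcf4* held most of the sum (97.0 to 104.3 and 93.5 to 97.9). Of the dendritic cell list (16.7 to 20.02 and 22.8 to 26.3) *Itgax* rose (0.35, adjusted p = 0.00616 in limma), while *Flt3* (0.0337 and 0.0465), *Zbtb46* (0.189 and 0.217) and *Clec9a* (0.429 and 1.21) were below the filter. All 7 macrophage markers were expressed. In limma 5 of them were lower, *Fcgr1* was higher (1.48) and *Cd68* was not past the threshold. Among all tested genes 34.6% were lower and 16.7% higher. *Lyz2*, whose promoter drives Cre, fell from 31.3 ± 1.03 to 9.75 ± 0.333 (-1.59, adjusted p = 2.33e-08 in limma). By the methods of the paper both genotypes had the same number of Cre alleles at this gene. Whether the Cre allele affects the RNA counted for *Lyz2* was not tested. In bulk RNA, fewer cells of a type and less RNA per cell cannot be told apart. The 6 fibroblast markers summed to 41.1 to 49.1 FPKM in control and to 536.5, 167.8 and 168.3 in CITED2-deficient replicates 1 to 3. Of these genes 5 were higher in limma, against 16.7% of all tested genes, and *Lum* was below the filter. The part of these markers in the members' values was not tested. Without CITED2-deficient replicate 1 the members were at 2.78 (*Slamf9*), 1.12 (*Slamf8*), 0.74 (*Slamf7*), 0.45 (*Ly9*), 0.26 (*Cd84*) and -0.41 (*Cd48*). The fibroblast sums of the remaining CITED2-deficient libraries were still above those of control, so these values do not test the part of the markers.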

How the data were processed

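RNAseq libraries were made by the authors from rRNA-depleted total RNA with a stranded kit. Per the labels and the methods, reads were mapped to mm10 with STAR, and the deposited values are FPKM per gene and library from Cuffdiff with the GENCODE annotation. Tool versions, the annotation release and the strand setting are not stated there. Columns were matched to samples by genotype and replicate number. Their headers use MRG and LysM, which were read as other names of CITED2 and *Lyz2*, so the match was inferred. Fragments were recovered as FPKM times the mean GENCODE vM21 transcript length (rounded down) and depth, and 96.1% of 22239 matched genes came out within 0.02 of whole numbers in all 6 libraries. Libraries of a genotype differed beyond sampling noise (chi-square averaging 2.28 to 6.29 over genes, pair by pair). The genotypes were compared in limma 3.58.1 (R 4.3.3), using log2(FPKM + 1) of genes averaging an FPKM of 1 or more, a trended prior variance and a Benjamini-Hochberg threshold of 0.05. This replaced the Cuffdiff test, which needs alignments. The fit was run on simulated data with known changes. The share of false calls there lay somewhat above the threshold, so calls close to it are less certain. The simulation changed far fewer genes than passed here and gave every gene the same dispersion, so its false share need not hold for these data. Members, partner lists, cell type marker lists, motifs and the rule for naming genes (the members, listed partners and markers, locus neighbors past the threshold, and the 3 genes closest in pattern to the members with the highest and lowest log2 fold change) were chosen with earlier results of these data known. Promoters were the 250 bases before RefSeq starts in GRCm38.p6. No protein sequences were used here. A few genes of the lists and of the locus are counted but not reported by name here. Alternatives were pseudocounts of 0.1 and 0.5, no filter or a minimum average FPKM of 5, median-ratio scaling, quantile normalization, no variance trend, a replicate block, limma-voom on recovered fragments, and each library left out.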

Additional observations from a re-analysis of the deposited data

How the results depend on the processing

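All 6 tested members kept their direction and stayed past the threshold in limma under the 15 alternatives tried. Scaling moved the split of calls between higher and lower. With the FPKM as deposited 5994 genes passed, 32.5% of them higher (1950 higher and 4044 lower), and after median-ratio scaling 5186 passed, 52.0% of them higher (2696 higher and 2490 lower). That scaling also moved the lower signaling partners from 8 to 5, and turned *Syk* (0.020, adjusted p = 0.621), *Fcer1g* (0.056, adjusted p = 0.255) and *Becn1* (0.050, adjusted p = 0.416) to positive values that did not pass. *Prkcd* was below 0 without control replicate 2 (-0.0082) and without CITED2-deficient replicate 3 (-0.0030), with up to 0.030 when other libraries were left out, and did not pass in any of these fits. Other single genes that crossed the threshold under an alternative did so without turning direction. The deviations of same-numbered libraries from their group means correlated by 0.014, 0.0078 and 0.040. Between differently numbered libraries the correlations ran from -0.052 to 0.035. All were near 0 and gave no sign that replicate numbers pair the libraries. The smallest count over all genes, 4986, came with a minimum average FPKM of 5, where fewer genes were tested. With the replicate block 5708 genes passed, and all 6 members did. Leaving out each library in turn gave 5211 to 5475 genes, 16 to 18 signaling partners and 17 to 20 locus neighbors past the threshold. Without a filter the 3 low members were fitted as well, at 0.17 for *Cd244a*, -0.088 for *Slamf1* and -0.055 for *Slamf6*, none past the threshold, and depth limits any statement on them.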

Other observations

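Marker lists of other cells that bone marrow cultures can hold gave mixed values. Of 6 neutrophil markers, 5 were tested in limma, where *Elane* (-2.08), *Camp* (-0.99), *S100a8* (-0.40) and *Ngp* (-0.33) fell and *Ltf* rose (0.90). The megakaryocyte list summed to 314.2 to 343.1 FPKM in control and 78.4 to 89.7 in CITED2-deficient libraries, most of it *Pf4* (-2.07), while *Ppbp* (0.69) and *Itga2b* (0.38) rose. Mast cell and basophil markers summed to 2.43 to 3.18 and 1.39 to 1.80, and stem and progenitor markers to 2.54 to 2.74 and 1.95 to 2.30, and *Kit*, the only gene of these 2 lists that was tested, did not pass (-0.13).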
